A study of Homo sapiens with 6 samples.

Results

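Potassium channels are encoded by one of the largest families of ion channel genes in the human genome. The genes described here are the 96 protein-coding genes, of 58735 genes in the count table, whose symbols begin with KCN and carry a subfamily letter and a number. They were chosen by symbol alone, so that pore-forming subunits and their auxiliary subunits were both included. RNA was sequenced from 3 control libraries, labelled as CNOT7 control, and 3 libraries with stable shRNA knockdown of CNOT7, a deadenylase of the CCR4-NOT complex, which shortens the poly(A) tails of mRNAs. The cells of both groups were not irradiated and were labelled SW480, a human colorectal cancer cell line, whereas the text of the study names HCT116 for its RNA sequencing. Per the study's methods, the shRNAs against CNOT7 were placed in a lentiviral vector that carries copGFP and a puromycin resistance gene. Which of them the knockdown libraries carry is not stated in the sources used here. The headers of the deposited counts name the control libraries shNc, and the vector and sequence behind that name are not stated either. Nothing says that the 3 libraries of a group came from separate cultures, so p-values measure only the spread between these libraries.

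A potassium channel lets potassium leave or enter the cell down its electrochemical gradient and so sets the resting membrane potential. Voltage-gated channels open on depolarization, calcium- or sodium-activated channels open when those ions rise inside the cell, inward rectifiers pass potassium into the cell more easily than out of it, and two-pore-domain channels carry a background leak. In the colonic epithelium, potassium channels of the basolateral membrane keep the driving force for chloride secretion. KCNJ10 (Kir4.1), an inward rectifier, is best known from glial cells, which use it to clear extracellular potassium, and from the basolateral membrane of kidney tubules.

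KCNJ10 (ENSG00000177807) is transcribed from the reverse strand of chromosome 1, between 159998651 and 160070483 in GRCh38. Its level was 6.85, 8.04 and 6.62 CPM in control libraries 1, 2 and 3 and 54.3, 60.2 and 54.5 CPM in knockdown libraries 1, 2 and 3, where CPM is counts scaled to a common library size after TMM normalization. Each knockdown library was far above each control library, and the 3 libraries of a group lay close together. The mean rose from 7.17 ± 0.761 to 56.3 ± 3.35 CPM (SD, n = 3), which was 7.86-fold (log2 fold change 2.97, 95% interval 2.78 to 3.17, standard error 0.0910). The adjusted p was 5.71e-13 by the quasi-likelihood test of edgeR, adjusted by the Benjamini-Hochberg method. The counts behind these levels were 529 in the control libraries together and 4811 in the knockdown libraries together. Over the 13 alternative ways of processing, its log2 fold change lay between 2.92 and 3.06. In a culture measured in bulk, a few cells with much of a transcript and many cells with a little of it cannot be told apart. The targeted gene itself, CNOT7, was at 169, 191 and 176 CPM in the control libraries and at 43.4, 47.2 and 38.6 CPM in the knockdown libraries, and its log2 fold change was -2.05 (adjusted p = 2.64e-12 by edgeR, standard error 0.0734).

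The promoters of the 3 called genes with the largest changes and a single RefSeq entry, KCNJ10, KCNK3 and KCNH8, are printed to show what sequence lies at the start of these genes. Each runs from 250 bases before to 50 bases after the RefSeq start, 5′ to 3′ on the strand of the gene in GRCh38.p14, and capitals mark the GC box, GGGCGG or its reverse complement CCGCCC. The 3 windows are at chr1:160070111-160070410 (reverse strand), chr2:26692472-26692771 (forward strand) and chr3:19148260-19148559 (forward strand).
KCNJ10: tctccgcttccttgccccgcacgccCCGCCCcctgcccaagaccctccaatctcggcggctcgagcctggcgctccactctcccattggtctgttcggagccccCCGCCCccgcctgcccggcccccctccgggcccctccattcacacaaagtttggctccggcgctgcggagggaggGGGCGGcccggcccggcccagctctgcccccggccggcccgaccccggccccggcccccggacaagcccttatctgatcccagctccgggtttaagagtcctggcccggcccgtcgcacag
KCNK3: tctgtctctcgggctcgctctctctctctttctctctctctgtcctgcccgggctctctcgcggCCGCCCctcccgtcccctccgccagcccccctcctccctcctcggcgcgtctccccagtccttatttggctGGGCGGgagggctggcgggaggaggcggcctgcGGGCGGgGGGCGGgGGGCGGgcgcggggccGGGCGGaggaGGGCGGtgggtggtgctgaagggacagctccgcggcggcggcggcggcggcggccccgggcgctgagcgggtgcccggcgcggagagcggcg
KCNH8: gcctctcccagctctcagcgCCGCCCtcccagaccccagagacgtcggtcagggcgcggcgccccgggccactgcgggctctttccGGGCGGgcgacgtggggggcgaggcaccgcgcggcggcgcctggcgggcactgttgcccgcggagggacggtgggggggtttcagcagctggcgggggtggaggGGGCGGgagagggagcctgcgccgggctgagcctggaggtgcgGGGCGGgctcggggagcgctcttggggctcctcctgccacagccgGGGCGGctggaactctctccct
The GC content was 74.7% for KCNJ10, 78.7% for KCNK3 and 77.7% for KCNH8, against a median of 58.7% over all 35116 promoter entries. KCNJ10 held 3 GC boxes, KCNK3 held 7 and KCNH8 held 5, and 45.0% of all entries held at least 1. None of the 3 windows held the E-box CACGTG, the TEAD element GGAATG or the TATA element TATAAA on either strand, which were found in 7.26%, 14.0% and 11.5% of all entries, so no motif overlapped another there. These matches describe letters in a window and do not show a binding site. An entry was found for 71 of the 96 potassium channel genes and for 14 of the 21 that were called.

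Of the 96 genes, 18 had no count in any library, which allows up to 3 counts in each, and 78 had at least 1 count. The level averaged at least 1 CPM over the 6 libraries in 39 genes. The count filter of edgeR, which asks for enough counts in as many libraries as a group holds, kept 49 genes for the test, and 29 had counts but too few. Of the 49 tested genes, 18 were higher with CNOT7 knockdown and 3 were lower at an adjusted p-value under 0.05, and 28 did not pass the test. This was 36.7% of the tested genes higher and 6.12% lower, where 13.3% of all 17574 tested genes were higher and 11.9% were lower. With a normalization that removes a trend with abundance (cyclic loess), 14 were higher and 5 were lower. Over all 17574 tested genes, cyclic loess gave 2187 higher and 1841 lower. The median log2 fold change was 0.29 over the 49 genes and 0.0039 over all tested genes. Above 0 lay 38 of the 49 and 8914 of all 17574 tested genes. The median depended on level: under a mean of 10 CPM it was 0.30 over the potassium channel genes and 0.13 over all tested genes. At 10 CPM or more these medians were 0.22 and -0.036.

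The share called higher was 34.3% (12 of 35) among the potassium channel genes with a mean under 10 CPM, where 14.3% of all tested genes at that level were higher. Among the 14 potassium channel genes with a mean of at least 10 CPM, 6 were higher (42.9%), where 12.5% of all tested genes at that level were higher. All 3 genes that were lower had a mean under 10 CPM, 8.57% of the 35, where 4.02% of all tested genes at that level were lower. None of the 14 genes with a mean of at least 10 CPM was lower, where 17.8% of all tested genes at that level were lower. In 22 of the 49 genes every knockdown library lay above every control library, and in 4 every one lay below. Of all 17574 tested genes, this held for 3617 above and 3198 below, and such groups without overlap, in either direction, made up 38.8%. All 21 called genes had groups that did not overlap, but so did 4288 of all called genes, of which 2329 were higher and 2095 lower. This lack of overlap is therefore usual for a called gene. A gene can enter the test through the group in which it is high: KCNK10 and KCNA7, both called higher, reached the count minimum in 3 libraries only through the knockdown group, as did KCNN1, KCNK7 and KCNH4, which did not pass the test.

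**Figure D1:**
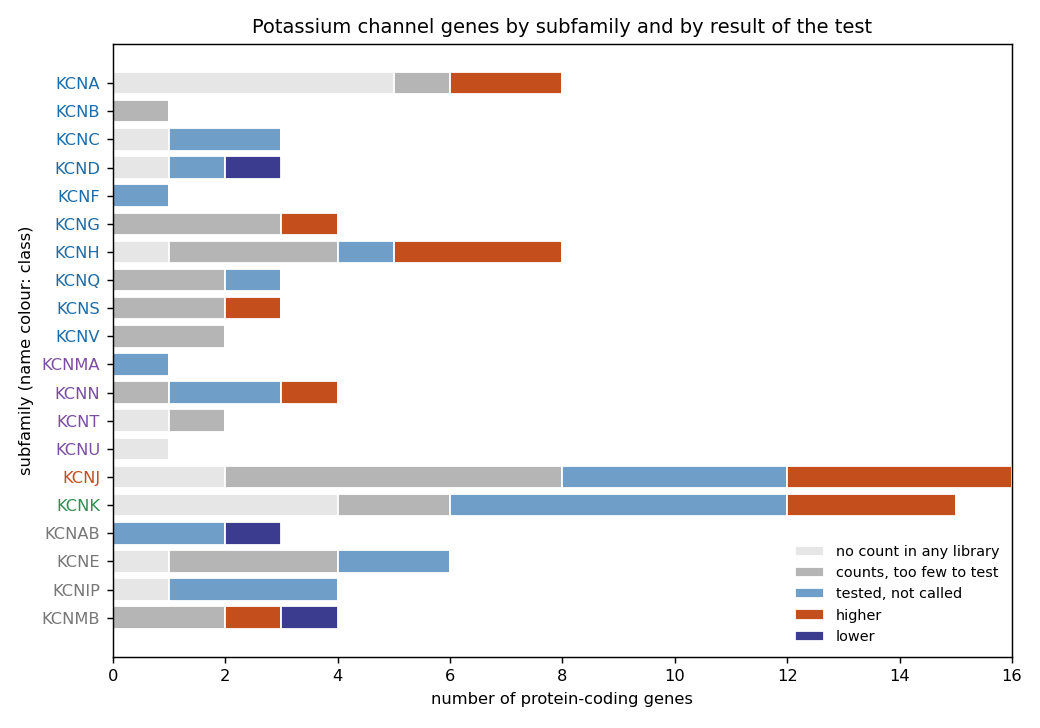
Number of protein-coding potassium channel genes in each KCN subfamily (x axis, genes; 92 genes), split by the result of the test; the colour of a subfamily's name gives its class. Voltage-gated genes make up 36 of the 92, KCNJ (inward rectifiers, 16) and KCNK (two-pore-domain, 15) are the largest single subfamilies, and genes called lower are found in KCND, KCNAB and KCNMB.

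The detected genes were counted in each class, and differences between the classes were not tested. Of 40 voltage-gated genes 32 had a count and 18 were tested, of 8 calcium- or sodium-activated genes 6 had a count and 4 were tested, of 16 inward rectifiers 14 had a count and 8 were tested, and of 15 two-pore-domain genes 11 had a count and 9 were tested. Among the 17 auxiliary subunit genes, 15 had a count and 10 were tested. The genes without any count were KCNA1, KCNA3, KCNA4, KCNA6, KCNA10, KCNC2, KCND2 and KCNH5 among the voltage-gated channels, KCNT2 and KCNU1 among the activated channels, KCNJ6 and KCNJ16 among the inward rectifiers, KCNK2, KCNK16, KCNK17 and KCNK18 among the two-pore-domain channels, and KCNE1B and KCNIP1 among the auxiliary subunits. Of the exonic bases of KCNA6, 100% are shared with GALNT8 on the same strand, so its lack of counts does not show that it was not transcribed. KCNJ16 (Kir5.1) is the subunit that pairs with KCNJ10 in kidney and glia.

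On a scale of CPM per kilobase of merged exons, which allows levels to be compared between genes, the 5 genes with the highest mean over the 6 libraries were KCNJ5 (13.8), KCNN4 (11.5), KCNJ12 (5.09), KCNJ10 (4.83) and KCNS3 (4.49). KCNN4 (KCa3.1), the calcium-activated channel of intermediate conductance that supports secretion in the colon, did not pass the test. Its level was 43.4, 37.8 and 38.2 CPM in the control libraries and 39.9, 35.2 and 39.8 CPM in the knockdown libraries, with a 95% interval of -0.22 to 0.11 for the log2 fold change (adjusted p = 0.644 by edgeR). KCNJ12 (Kir2.2), a strong inward rectifier of heart and muscle, was at 32.4, 24.8 and 29.01 CPM in control and 27.5, 26.7 and 31.2 CPM in knockdown libraries, with an interval of -0.21 to 0.18 (adjusted p = 0.934 by edgeR). Both genes had groups that overlapped. Reads of KCNJ12 are shared with its near-identical copy KCNJ18, which had 5 counts in control and 3 in knockdown libraries, so the split between the 2 genes is uncertain. In the same unit, KCNJ10 was at 1.09 in the control group and 8.56 in the knockdown group, where its level was under those of KCNJ5 (14.9) and KCNN4 (11.2) and above those of KCNS3 (5.67), KCNG1 (5.17) and KCNJ12 (5.07).

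Among the inward rectifiers, 4 of 8 tested genes were higher and none was lower, and their median log2 fold change was 0.11. Beside KCNJ10, these were KCNJ11, KCNJ14 and KCNJ5, whose changes were much smaller. KCNJ11 (Kir6.2), the pore of the ATP-sensitive channel that couples metabolism to membrane potential, was at 3.04, 3.70 and 4.19 CPM in control and 5.996, 4.53 and 5.17 CPM in knockdown libraries (log2 fold change 0.52, standard error 0.162, adjusted p = 0.0243 by edgeR). The highest control library was close to the lowest knockdown library, and the call was lost without control replicate 1 (adjusted p = 0.112), without knockdown replicate 1 (0.138), with cyclic loess (0.0787) and with DESeq2 (0.0636). KCNJ14 (Kir2.4) was at 4.90, 3.87 and 3.67 CPM in control and 5.14, 6.20 and 5.84 CPM in knockdown libraries (log2 fold change 0.46, standard error 0.15005, adjusted p = 0.0313 by edgeR). Its call was lost without control replicates 2 or 3 (adjusted p = 0.0779 and 0.136), without knockdown replicates 2 or 3 (0.0806 and 0.0680), with cyclic loess (0.0998) and with DESeq2 (0.0822). Of its exonic bases, 10.85% are shared with genes on the same strand, among them GRWD1, and 16.47% with an antisense gene.

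KCNJ5 (Kir3.4), a G protein-gated channel known from the heart and the adrenal cortex, had the highest level of the family and the smallest called change. It was at 80.0, 74.5 and 78.1 CPM in control and 94.9, 81.8 and 95.6 CPM in knockdown libraries (log2 fold change 0.23, standard error 0.0671, adjusted p = 0.0193 by edgeR). Knockdown library 2 was only just above the highest control library. The call was lost without control replicates 2 or 3 (adjusted p = 0.0526 and 0.0659) and without knockdown replicates 1 or 3 (0.138 and 0.0840). KCNJ8 (Kir6.1), the other pore of ATP-sensitive channels, was the tested gene nearest above the threshold. Its level was 3.04, 3.27 and 4.15 CPM in control and 2.34, 2.50 and 2.59 CPM in knockdown libraries, every one of the latter lower (log2 fold change -0.49, standard error 0.177, adjusted p = 0.0507 by edgeR). It passed the threshold with RLE factors (adjusted p = 0.0469), with cyclic loess (0.0174), with protein-coding genes alone (0.0490) and without control replicate 1 (0.0430). KCNJ1 and KCNJ4 also did not pass the test.

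Of the voltage-gated channels, 9 of 18 tested genes were higher and 1 was lower, and their median log2 fold change was 0.59. KCNA2 (Kv1.2), a delayed rectifier of axons, was at 4.75, 4.47 and 3.83 CPM in control and 11.4, 10.4 and 11.99 CPM in knockdown libraries (log2 fold change 1.37, standard error 0.123, adjusted p = 3.81e-07). The spread within each group was small beside the distance between the groups. KCNA7 (Kv1.7), a channel of the same subfamily, was much lower in level, at 0.739, 0.344 and 0.439 CPM in control and 1.53, 1.09 and 0.907 CPM in knockdown libraries (log2 fold change 1.19, standard error 0.352, adjusted p = 0.0197). It had 38 counts in control and 100 in knockdown libraries, and the call was lost without control replicates 2 or 3 (adjusted p = 0.0711 and 0.0810), without knockdown replicate 1 (0.126), with cyclic loess (0.0505) and with DESeq2 (0.0576). The other KCNA genes had no count, apart from 2 counts of KCNA5.

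The KCNH subfamily, named after the ether-a-go-go channel of the fly, had 3 of its 4 tested genes higher. KCNH8 (Kv12.1) was at 1.13, 1.204 and 0.958 CPM in control and 3.12, 3.41 and 2.85 CPM in knockdown libraries (log2 fold change 1.51, standard error 0.207, adjusted p = 3.97e-05 by edgeR). KCNH3 (Kv12.2), a channel of the same branch, was at 0.856, 0.559 and 1.12 CPM in control and 2.24, 1.70 and 1.65 CPM in knockdown libraries (log2 fold change 1.13, standard error 0.280, adjusted p = 0.00658). Both lay at low levels, with control libraries near 1 CPM. KCNH2 (hERG, Kv11.1), which repolarizes the heart muscle and is found in many tumour cell lines, was expressed more strongly. It was at 12.8, 14.6 and 15.5 CPM in control and 23.9, 20.4 and 23.6 CPM in knockdown libraries (log2 fold change 0.67, standard error 0.0972, adjusted p = 7.59e-05). KCNH4 did not pass the test (log2 fold change -0.05, 95% interval -0.96 to 0.87).

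KCNS3 (Kv9.3) and KCNG1 (Kv6.1) are electrically silent subunits, which form no channel on their own and modify the channels of another subfamily. Both were higher with CNOT7 knockdown. KCNS3 was at 10.2, 9.63 and 11.3 CPM in control and 19.2, 17.0 and 17.0 CPM in knockdown libraries (log2 fold change 0.78, standard error 0.0990, adjusted p = 1.86e-05). KCNG1 was at 20.2, 17.1 and 18.5 CPM in control and 28.7, 25.7 and 30.02 CPM in knockdown libraries (log2 fold change 0.60, standard error 0.0884, adjusted p = 9.04e-05). All knockdown libraries of both genes lay above all control libraries. An antisense gene on the opposite strand covers 7.98% of the exonic bases of KCNG1, and whether the counting used strand is not stated in the sources used here.

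KCND3 (Kv4.3), which carries a rapidly inactivating A-type current, was the pore-forming gene that fell. It was at 2.37, 2.41 and 3.23 CPM in control and 1.14, 1.16 and 1.68 CPM in knockdown libraries. Every knockdown library was below every control library, and the mean was 0.498-fold the control mean (log2 fold change -1.01, standard error 0.228, adjusted p = 0.00360 by edgeR). KCND1 (Kv4.1) of the same subfamily had a log2 fold change of 0.30 and did not pass the test (adjusted p = 0.0540), although its groups did not overlap. The difference between the 2 genes was not tested. KCNC1, KCNC4, KCNF1 and KCNQ1 had log2 fold changes between -0.01 and 0.58 and did not pass the test. KCNQ1, the channel that works with KCNE3 in the colonic epithelium, was at 2.14 ± 0.314 CPM in control and 2.13 ± 0.349 CPM in knockdown libraries (SD, n = 3).

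**Figure D2:**
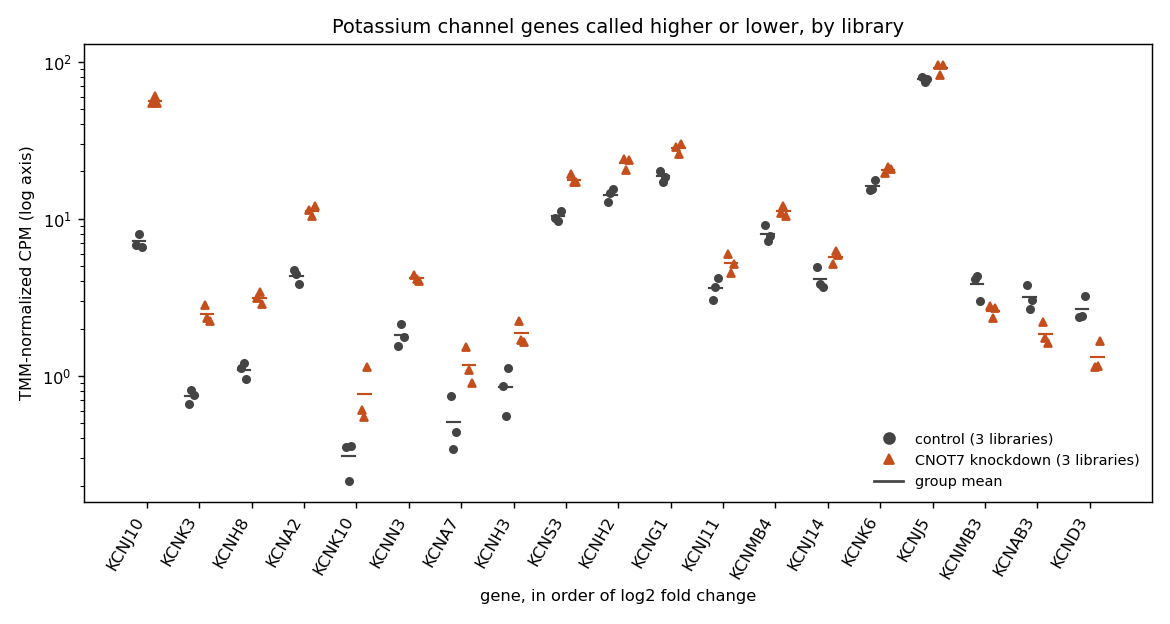
TMM-normalized CPM (log axis) of 19 called potassium channel genes in each of the 6 libraries, in order of log2 fold change, with points for libraries and lines for the mean of each group. Knockdown points lie above all control points in 16 genes and below them in KCNMB3, KCNAB3 and KCND3, and the gap is widest for KCNJ10.

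Two-pore-domain channels were higher in 3 of 9 tested genes, their median log2 fold change was 0.29, and no gene lay below 0. KCNK3 (TASK-1), a leak channel closed by extracellular acid, was at 0.662, 0.817 and 0.758 CPM in control and 2.84, 2.32 and 2.25 CPM in knockdown libraries (log2 fold change 1.72, standard error 0.240, adjusted p = 4.61e-05 by edgeR). It had the largest rise after KCNJ10, 3.30-fold, from 55 counts in control to 211 in knockdown libraries. KCNK6 (TWIK-2), at 15.3, 15.4 and 17.7 CPM in control and 19.4, 21.4 and 20.7 CPM in knockdown libraries, had a smaller change at a higher level (log2 fold change 0.35, standard error 0.0899, adjusted p = 0.00834). KCNK10 (TREK-2), a channel opened by membrane stretch and fatty acids, rested on the fewest counts of the called genes, 23 in control and 66 in knockdown libraries. Its level was 0.350, 0.215 and 0.359 CPM in control and 0.603, 0.544 and 1.14 CPM in knockdown libraries (log2 fold change 1.29, standard error 0.427, adjusted p = 0.0339). The call was lost without control replicates 1, 2 or 3 (adjusted p = 0.0607, 0.104 and 0.0706), without knockdown replicates 1 or 3 (0.0517 and 0.204), with cyclic loess (0.0787) and with DESeq2 (0.107). KCNK1 (TWIK-1) and KCNK5 (TASK-2), at 13.6 and 12.2 CPM in the control group, had log2 fold changes of 0.20 and 0.09 and did not pass the test. KCNK7, KCNK12, KCNK13 and KCNK15 did not pass it either.

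Among the calcium- or sodium-activated channels, 1 of 4 tested genes was higher. KCNN3 (SK3), a small-conductance channel opened by calcium through calmodulin, was at 1.56, 2.15 and 1.76 CPM in control and 4.3997, 4.13 and 3.996 CPM in knockdown libraries (log2 fold change 1.2001, standard error 0.177, adjusted p = 8.56e-05 by edgeR). The groups were well apart. KCNN1 (SK1), with 21 counts in control and 50 in knockdown libraries, had a log2 fold change of 1.03 and did not pass the test (95% interval 0.12 to 1.94 before adjustment, adjusted p = 0.0906). KCNMA1, the pore of the large-conductance (BK) channel, was at 7.85 ± 1.21 CPM in control and 9.66 ± 1.17 CPM in knockdown libraries (SD, n = 3), with overlapping groups and an adjusted p of 0.106 by edgeR.

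Of the auxiliary subunits, 1 of 10 tested genes was higher and 2 were lower, and the median log2 fold change was 0.13. Of the 39 tested pore-forming genes, 17 were higher and 1 was lower, with a median of 0.30; the difference between the 2 kinds of genes was not tested. KCNMB4, the neuronal beta subunit of the BK channel, was at 9.11, 7.22 and 7.78 CPM in control and 10.96, 12.1 and 10.5 CPM in knockdown libraries (log2 fold change 0.47, standard error 0.115, adjusted p = 0.00595 by edgeR). KCNMB3, another BK beta subunit, changed the opposite way, at 4.12, 4.34 and 2.99 CPM in control and 2.77, 2.32 and 2.72 CPM in knockdown libraries (log2 fold change -0.55, standard error 0.180, adjusted p = 0.0330). Control replicate 3 was close to the knockdown libraries, and the call was lost without control replicates 1 or 2 (adjusted p = 0.106 and 0.111), without knockdown replicates 1 or 2 (0.0572 and 0.0837) and with DESeq2 (0.0762). PIK3CA on the opposite strand shares 37.9% of its exonic bases and a pseudogene on the same strand shares 9.62%, so how its reads were counted is uncertain.

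KCNAB3, a cytoplasmic beta subunit of Kv1 channels, was at 3.77, 2.67 and 3.03 CPM in control and 2.20, 1.74 and 1.61 CPM in knockdown libraries. All knockdown libraries were lower (log2 fold change -0.77, standard error 0.203, adjusted p = 0.00942 by edgeR), and the call was lost without control replicate 1 (adjusted p = 0.0606). The other KCNAB genes, KCNAB1 and KCNAB2, had log2 fold changes of 0.33 and 0.22 and did not pass the test. The KChIP genes, whose proteins bind Kv4 channels such as KCND3, did not pass it in any of the 3 tested, although KCNIP3 was near the threshold with a log2 fold change of -0.49 (adjusted p = 0.0555). KCNE3, the partner of KCNQ1 in the colon, was at 6.20 ± 0.201 CPM in control and 6.26 ± 0.203 CPM in knockdown libraries (SD, n = 3), with a 95% interval of -0.24 to 0.27 for the log2 fold change.

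Some genes with too few counts for the test had groups that did not overlap, and they are given as counts, chosen after their values were seen. KCNJ9 (Kir3.3), a G protein-gated inward rectifier next to KCNJ10 on chromosome 1, had 2, 0 and 0 counts in control and 12, 20 and 5 counts in knockdown libraries. In a fit without the count filter its adjusted p was 0.00025 by edgeR, which is a description only, since these genes were chosen by the same counts. KCNT1, a sodium-activated channel, had 5, 7 and 6 counts in control and 18, 10 and 29 counts in knockdown libraries, with an adjusted p of 0.0261 in that fit. KCNV1 had 2 counts in all control libraries and 17 in all knockdown libraries, KCNMB1 had 3 and 13, and KCNH6 had 10 and 21. In the other direction, KCNG2 had 8 counts in control and 0 in knockdown libraries, and KCNH1 had 7 and 2. KCNMB1, KCNH6, KCNG2 and KCNH1 did not pass the threshold in the fit without the filter (adjusted p = 0.399, 0.593, 0.0929 and 0.524 by edgeR). The remaining untested genes with counts had overlapping groups.

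The genes that flank KCNJ10 on chromosome 1 were examined to see how levels moved on both sides of it. On the side of lower coordinates, TAGLN2, an actin-binding protein, was at 356, 332 and 363 CPM in control and 364, 360 and 368 CPM in knockdown libraries (log2 fold change 0.06, adjusted p = 0.473 by edgeR). IGSF9, an adhesion protein of the immunoglobulin superfamily, was at 3.11, 3.61 and 3.47 CPM in control and 7.27, 7.57 and 6.55 CPM in knockdown libraries (log2 fold change 1.07, standard error 0.137, adjusted p = 2.03e-05). SLAMF9 had almost no counts and was not tested. PIGM, a mannosyltransferase of GPI anchor synthesis, lies from 160024953 to 160031991 on the same strand, within the span of KCNJ10 but without sharing its exons. It was at 41.2, 46.9 and 46.2 CPM in control and 61.1, 59.6 and 59.3 CPM in knockdown libraries (log2 fold change 0.42, standard error 0.0674, adjusted p = 0.000175). Reads of unspliced KCNJ10 RNA could be counted for PIGM in that span, and their part in its rise was not tested. On the side of higher coordinates, beyond KCNJ9, IGSF8 was at 26.7, 23.0 and 28.6 CPM in control and 43.6, 38.7 and 49.9 CPM in knockdown libraries (log2 fold change 0.76, standard error 0.0957, adjusted p = 1.73e-05). Thus IGSF9, PIGM and IGSF8 rose, with smaller log2 fold changes than KCNJ10, and TAGLN2 did not pass the test.

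**Figure D3:**
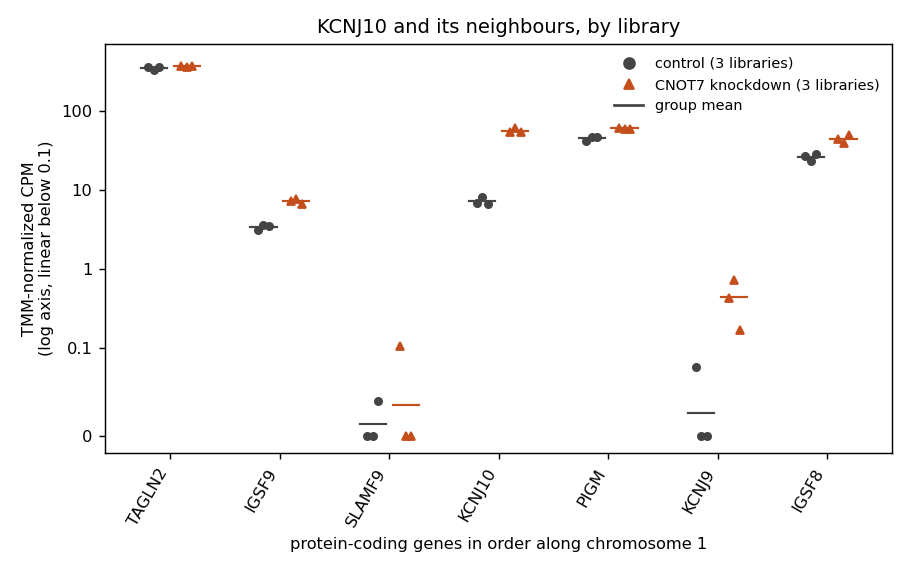
TMM-normalized CPM of KCNJ10 and the 3 protein-coding genes on either side of it in order along chromosome 1, in each library (log axis, linear below 0.1), with lines for group means. KCNJ10 shows the widest gap between groups among the tested genes, IGSF9, PIGM and IGSF8 show smaller gaps, and TAGLN2 overlaps.

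A channel works beside pumps and transporters that build the potassium gradient and beside subunits from other families. A list of 51 such partner genes held 26 tested genes, of which 9 were higher and 8 were lower, and the median log2 fold change was 0.21. Without control replicate 3, 5 were lower, and over all genes 1367 of 18077 tested were lower in that fit. With all libraries, the shares of 34.6% higher and 30.8% lower stand beside the 13.3% and 11.9% of all tested genes. Among 8 tested genes of the sodium-potassium and proton-potassium pumps, 4 were higher and 3 were lower. ATP1B2, a beta subunit best known from glia, was at a low level and rose from 2.42 ± 0.344 to 6.69 ± 0.635 CPM (SD, n = 3; log2 fold change 1.47, adjusted p = 2.67e-06 by edgeR). ATP12A, the proton-potassium pump of the colon, rose from 2.55 ± 0.384 to 5.89 ± 1.04 CPM (log2 fold change 1.198, adjusted p = 6.29e-05). ATP1B1, the common beta subunit, fell from 41.2 ± 1.14 to 33.5 ± 4.16 CPM (log2 fold change -0.30, adjusted p = 0.0137), a call lost without knockdown replicate 1 (adjusted p = 0.0586) or 3 (0.0604).

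Partners that assemble with members of the family were also measured. ABCC8 (SUR1), the sulfonylurea receptor that surrounds the KCNJ11 pore, was at 1.48, 1.29 and 1.52 CPM in control and 3.02, 2.61 and 2.92 CPM in knockdown libraries (log2 fold change 0.99, standard error 0.197, adjusted p = 0.00129 by edgeR). The receptor ABCC9 (SUR2), which pairs with KCNJ8, had a log2 fold change of 0.38 and did not pass the test (adjusted p = 0.424). LRRC55, a gamma subunit of the BK channel, was at 30.7, 30.9 and 30.8 CPM in control and 64.5, 66.8 and 63.7 CPM in knockdown libraries (log2 fold change 1.08, standard error 0.0642, adjusted p = 2.99e-09). The pacemaker channel HCN2 rose from 39.2 ± 0.376 to 49.95 ± 2.12 CPM (SD, n = 3; log2 fold change 0.35, adjusted p = 0.000838). The potassium-chloride cotransporter SLC12A4 had a log2 fold change of -0.29 (adjusted p = 0.00794). Of the epithelial transport genes, SCNN1A, the alpha subunit of the epithelial sodium channel, fell from 80.7 ± 2.61 to 53.7 ± 3.63 CPM (log2 fold change -0.59, adjusted p = 4.29e-06), and ANO1, a calcium-activated chloride channel, fell from 431 ± 14.3 to 360 ± 9.55 CPM (log2 fold change -0.26, adjusted p = 0.000938). AQP4, the water channel found beside KCNJ10 in glial endfeet, had no count in the control libraries and a mean of 0.0118 CPM in the knockdown libraries.

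Marker genes of the cell types in which these channels are best known were checked beside the results. Of 8 colorectal epithelium markers, 6 were tested, with CDH1 (log2 fold change 0.51) and VIL1 (0.72) higher and KRT8 (-0.15) lower, and KRT20 and CDX1 were near 0. The summed level of this list was 4867 to 5220 CPM in control and 4534 to 5015 CPM in knockdown libraries. The 4 glia markers summed to 17.8 to 20.0 CPM in control and 19.6 to 21.2 CPM in knockdown libraries, nearly all of it SLC1A2, with GFAP, S100B and AQP4 under 0.1 CPM. The 3 neuron markers summed to 32.8 to 40.7 CPM in control and 32.5 to 37.8 CPM in knockdown libraries, and SYT1 and SNAP25 did not pass the test. Immune markers summed to at most 0.544 CPM, endothelium markers to at most 3.44 CPM and fibroblast markers to at most 11.9 CPM, with no count for COL3A1 and DCN. The part of CDH1 and VIL1 in the results was not tested. Total counts ranged from 23788451 to 25982493 in control and from 27523812 to 29104872 in knockdown libraries, so that each knockdown library was deeper than each control library, and the part of depth in the results was not tested.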

How the data were processed

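RNA-seq of 6 libraries was used, 3 per group. Per the labels, total RNA was extracted with TRIzol and libraries were prepared with a NEBNext Ultra kit. The authors deposited raw counts per gene, without normalization, with gene names, GRCh38 positions and a gene length that equalled the merged exon length of GENCODE for 96 of 96 members. The submitters' processing notes name CASAVA 1.8, fastp, HISAT2 2.0.5, featureCounts 1.5.0-p3, DESeq2 1.20.0 and GRCh38, without their roles. Library totals were 23788451 to 29104872, the number of unused value columns was 0, and counts of replicates differed by more than sampling noise. Counts were filtered (filterByExpr), normalized (TMM) and tested between groups with edgeR 4.0.16 in R 4.3.3 (quasi-likelihood, Benjamini-Hochberg over 17574 genes, threshold 0.05). Each standard error was derived from the log2 fold change and its F statistic (size over the root of F). Alternatives were DESeq2 1.42.0, RLE factors, no count filter, a minimum of 10 counts per library, a replicate block, each library left out, cyclic loess offsets (limma 3.58.1) and protein-coding genes alone. In simulated counts edgeR recovered 63 of 100 genes changed 1.5-fold, 94 of 100 changed 3-fold, and called 9 of 17090 unchanged genes. These counts were drawn from the model fitted by edgeR, for independent libraries, with changed genes picked from all tested genes. The rates therefore do not apply to the potassium channel genes as such or to libraries that share a culture. Genes named were KCNJ10, every called member, the 5 highest per kilobase, the tested member nearest above the threshold, up to 12 called partner genes by absolute log2 fold change, and 3 protein-coding neighbours on either side of KCNJ10. Further members are named to account for the family. Some genes are included in the counts and medians but are not reported by name or plotted here. Members and lists were chosen with earlier results of these data known. Promoters came from RefSeq (GRCh38.p14) and figures were drawn with matplotlib 3.10.9.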

Additional observations from a re-analysis of the deposited data

How the results depend on the processing

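Over the 13 alternatives, 14 of the 21 called potassium channel genes kept their direction and their side of the threshold wherever they were tested, and none of the 21 changed direction. The other 7 (KCNA7, KCNAB3, KCNJ5, KCNJ11, KCNJ14, KCNK10 and KCNMB3) lost the call with at least 1 library left out. KCNA7 and KCNK10 had under 10 counts in some library and were not tested with that minimum. The number higher, 18, was 14 with DESeq2 or cyclic loess, 15 with at least 10 counts in every library, 20 without a filter or with protein-coding genes alone, and 14 to 19 with a library left out, lowest without knockdown replicate 1. The number lower, 3, was 5 with cyclic loess, 5 with the replicate block and 2 to 4 with a library left out. The cause was not tested. Of the partner genes, 7 to 10 were higher and 5 to 8 were lower with a library left out, lowest without control replicate 3 for those lower. The counts over all genes moved too, from 2329 higher and 2095 lower. They were 1773 and 2084 with DESeq2, 2187 and 1841 with cyclic loess, and 2201 and 2342 without a filter. Without knockdown replicate 1 they were 1626 and 1480, and without control replicate 3 they were 1663 and 1367. CNOT7 stayed between -2.13 and -1.98 on the log2 scale. Neither KCNN4 nor KCNJ12 passed the test in any alternative, and their log2 fold changes crossed 0. With a library left out they ran from -0.098 to 0.0079 for KCNN4 and from -0.11 to 0.0788 for KCNJ12. Values above 0 were 0.0079 for KCNN4 and 0.0788 for KCNJ12 without control replicate 1, and 0.0285 for KCNJ12 without knockdown replicate 2.

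The replicate numbers of the labels were not taken as pairs, since the deviations of same-numbered libraries from their group means correlated at 0.0459, 0.241 and -0.00768. With the replicate block, 22 potassium channel genes were higher and 5 lower, 11 partner genes were higher and 9 lower, and KCNJ8 passed the threshold (adjusted p = 0.0315 by edgeR). Over all genes the block gave 3202 higher and 3306 lower calls, against 2329 and 2095 without it. With 3 libraries per group, genes under about 1 CPM had wide intervals, and of the 78 detected members 29 could not be tested.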

Other observations

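The table also holds 21 other genes whose names begin with KCN, such as antisense transcripts and pseudogenes, of which 4 were tested. KCNQ1OT1, the imprinted antisense RNA of the KCNQ1 region, was at 45.7 ± 3.41 CPM in control and 46.1 ± 3.33 CPM in knockdown libraries (SD, n = 3) and did not pass the test (log2 fold change 0.01, adjusted p = 0.925 by edgeR). KCNK15-AS1 was higher with CNOT7 knockdown, at 0.662, 0.774 and 0.718 CPM in control and 1.85, 1.16 and 1.38 CPM in knockdown libraries (log2 fold change 1.02, adjusted p = 0.0148). KCNK15, part of which it overlaps on the opposite strand, did not pass the test (log2 fold change 0.29, adjusted p = 0.400). KCNMB2-AS1 and KCNQ1DN did not pass it either, with adjusted p-values of 0.211 and 0.878.

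A wider stretch around KCNJ10 was examined after the values of its nearest neighbours were seen. Of the 10 genes on either side, 11 were tested, 6 of them were higher (SLAMF8, SNHG28, CFAP45, IGSF9, PIGM and IGSF8) and 1 was lower (PEA15), with a median log2 fold change of 0.42. Over all tested genes, 13.3% were higher and 11.9% were lower, and since the stretch was chosen with the nearest values known, these counts are a description only. The rises of SLAMF8 (log2 fold change 1.30, adjusted p = 0.0103) and CFAP45 (1.39, adjusted p = 0.00581) were at low levels, under 2 CPM in both groups. PEA15, at 97.4 CPM in control and 80.1 CPM in knockdown libraries, fell by 0.28 on the log2 scale (adjusted p = 0.00195).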
